A study of Rattus norvegicus with 9 samples.

Results

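The genes described here encode the enzymes and carriers that take glucose through glycolysis, the pentose phosphate branch and the tricarboxylic acid (TCA) cycle. They were taken by name from a list of 37 genes, matched to the gene symbols of the deposited table without use of any measured value. Of these 37 genes, 33 had a line among the 22077 intact genes of the table, and all 33 were among the 12447 genes tested. Gapdh, Pfkfb4, Ogdh and Pgd were not analysed here.

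Glycolysis splits glucose into pyruvate in the cytosol, and hexokinase and phosphofructokinase are its main control points. Pyruvate is then either reduced to lactate, which leaves the cell through monocarboxylate transporters, or carried into mitochondria and turned by pyruvate dehydrogenase into acetyl-CoA for the TCA cycle. Resting lymphocytes rely largely on mitochondrial respiration, activated lymphocytes and myeloid cells take up more glucose, and mature red cells, which lack mitochondria, live on glycolysis alone. Many glycolytic genes are targets of the hypoxia-inducible factors (HIF), which act when oxygen is low.

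RNA was sequenced from peripheral blood mononuclear cells of wild-type Sprague-Dawley rats in 3 groups of 3 libraries: normoxia at day 0, Sugen-hypoxia at day 28 and Sugen-hypoxia at day 56. In the Sugen-hypoxia model, pulmonary hypertension is brought about in rats by a VEGF receptor inhibitor given with low oxygen. The only normoxia libraries are those of day 0, so day, age and treatment cannot be told apart. Separate animals are not named for the replicates, and the p-values thus reflect variation among these particular samples, part of which may be technical.

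The libraries held 22148400 to 39947430 exon reads. The 5 globin-locus genes with the most reads took 43.0 to 56.3% of exon reads in normoxia, 1.42 to 29.0% at day 28 and 40.5 to 44.4% at day 56, so red cell RNA was a large and uneven part of these samples. Summed T cell markers lay between 1332 and 2324 CPM (exon reads scaled to a common library size by the trimmed mean of M values, TMM) in all 9 libraries. The 6 Sugen-hypoxia libraries had 11.9 to 24.9% of their gene reads in introns, and the normoxia libraries had 14.6% (replicate 1), 6.60% (replicate 2) and 5.37% (replicate 3). In a bulk sample, fewer cells of a type and less RNA per cell cannot be told apart.

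At day 56, 4 of the 33 genes rose against normoxia and none fell. They were Slc2a1 and Slc2a3, which encode the glucose transporters GLUT1 and GLUT3, Hk2, which encodes the inducible hexokinase, and Pdha1, which encodes the catalytic alpha subunit of pyruvate dehydrogenase. The 4 calls are 12.1% of the 33 genes, and 7.12% of all genes tested were called in this comparison, 3.42% as higher and 3.7% as lower. DESeq2 called 8 of the 33 (24.2%), against 18.4% of all genes. The median log2 fold change of the 33 genes was 0.07, against -0.04 over all genes tested, with 17 positive and 16 negative values. The signs were thus almost evenly split over the set. The calls lay at glucose entry, at its first phosphorylation and, through Pdha1 alone, at pyruvate entry into the TCA cycle.

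At day 28 against normoxia, 0 of the 33 genes were called with edgeR's quasi-likelihood test, while 7 (21.2%) had an unadjusted p under 0.05, against 28.8% of all genes, and DESeq2 called 2 (6.06%), against 13% of all genes. With edgeR, 0.129% of all genes were called in that comparison, 0.0884% as higher and 0.0402% as lower. The median log2 fold change of the 33 genes at day 28 was 0.07, against -0.01 over all genes, with 19 positive and 14 negative values. Between day 56 and day 28, 0 of the 33 were called with edgeR, against 0.546% of all genes, 0.426% as higher and 0.121% as lower. An unadjusted p under 0.05 was found for 7 (21.2%), against 18.5% of all genes, and DESeq2 called 2 (6.06%), against 8.13% of all genes. With edgeR, few genes of any kind were called in the comparisons with day 28 libraries.

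**Figure D1:**
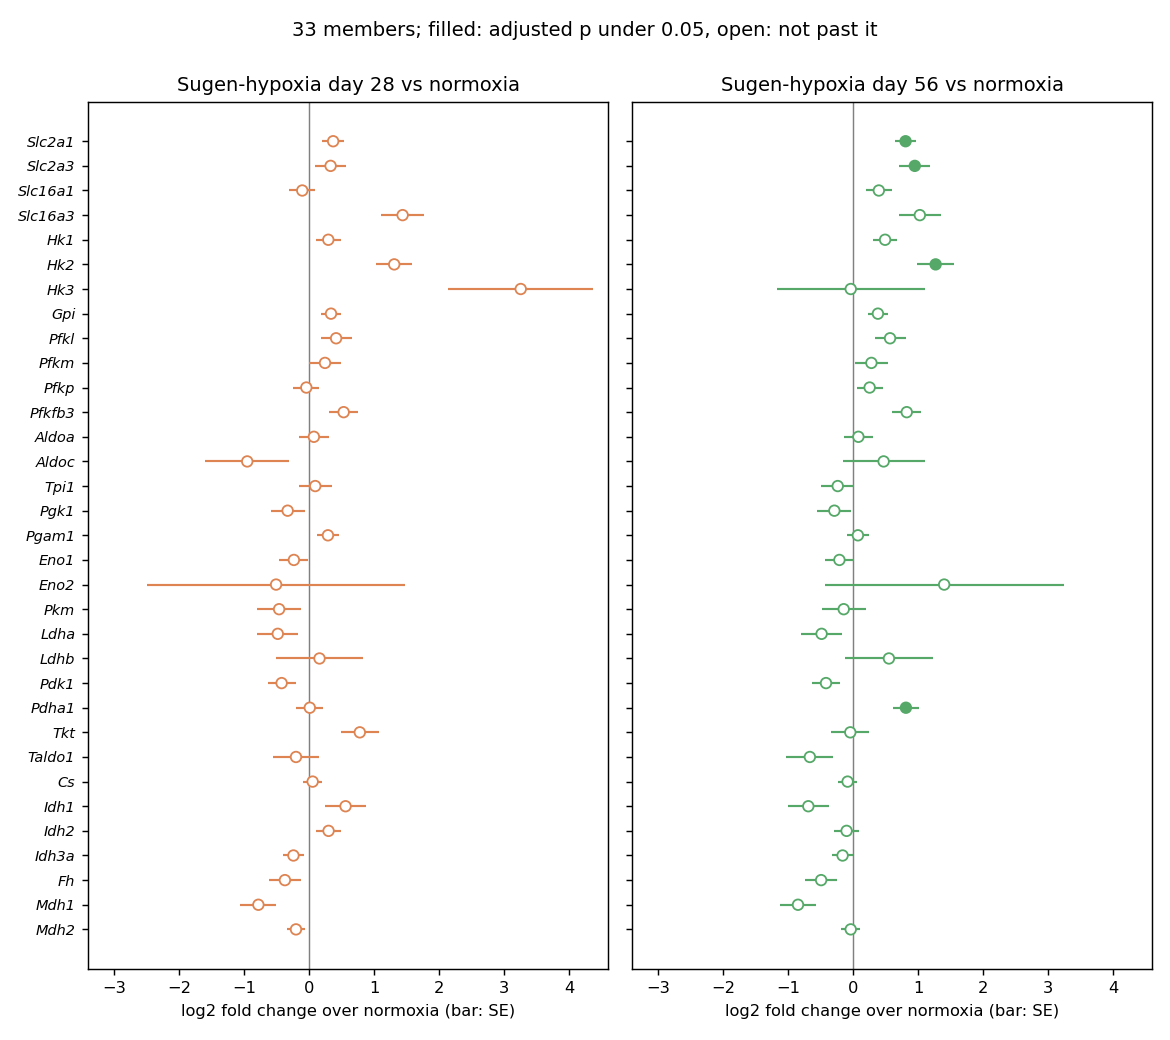
Log2 fold change over normoxia (horizontal axis, bar: SE) of the 33 genes, ordered from transport to the TCA cycle, at day 28 on the left and day 56 on the right; 3 libraries a group. Filled points passed an adjusted p of 0.05, and the 4 filled points are Slc2a1, Slc2a3, Hk2 and Pdha1 at day 56.

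All 4 glucose and lactate carriers had 3 day 56 libraries above all 3 normoxia libraries, and 2 of the 4 were called. Over the whole set, 9 of 33 genes had day 56 libraries above normoxia without overlap, which is 27.3%, against 15.6% of all genes, and 1 of 33, or 3.03%, lay below without overlap, against 14.9% of all genes.

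Slc2a1, the carrier for basal glucose uptake in many cell types, lies on rn6 chromosome 5 between 138154672 and 138182897. Its levels were 19.8, 14.3 and 14.5 CPM in normoxia, 19.7, 21.2 and 22.1 CPM at day 28, and 28.8, 28.0 and 28.3 CPM at day 56. The day 56 libraries were nearly equal to each other and lay above all 6 others, while at day 28 replicate 1 fell just under the highest normoxia library. The rise at day 56 was 1.75-fold (log2 0.80, SE 0.17, adjusted p = 0.0257), and the log2 fold change at day 28 was 0.37 (adjusted p = 0.172).

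Slc2a3, the high-affinity neuronal and leukocyte glucose transporter, was at 16.0, 15.7 and 18.2 CPM in normoxia, 18.5, 29.5 and 14.7 CPM at day 28, and 32.5, 29.2 and 34.3 CPM at day 56. All normoxia libraries lay below all day 56 libraries, whereas day 28 spanned both ranges through its replicate 2. The rise at day 56 was 1.93-fold (log2 0.95, SE 0.24, adjusted p = 0.0473). The file gives this gene a span on rn6 chromosome 4 from 155408232 to 155631856, and 66.8% of the exon reads counted for it mapped to a single place, so part of its level may belong to another locus. On uniquely mapped reads alone the log2 fold change was 0.93 (adjusted p = 0.0463).

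Slc16a3 encodes MCT4, a lactate exporter of glycolytic cells. It was measured at 12.0, 7.14 and 10.97 CPM in normoxia, 29.4, 36.7 and 15.2 CPM at day 28, and 16.7, 23.9 and 20.4 CPM at day 56. Every Sugen-hypoxia library was above every normoxia library, but the spread within day 28 was wide. The log2 fold changes over normoxia, 1.44 (SE 0.33, adjusted p = 0.0762) at day 28 and 1.02 (SE 0.33, adjusted p = 0.0779) at day 56, did not pass the threshold. Slc16a1, which encodes the more widely expressed MCT1, had log2 fold changes of -0.10 at day 28 and 0.39 at day 56, neither of them called.

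Among hexokinases, which trap glucose in the cell by phosphorylating it, Hk2 moved and Hk1 did not pass the test. Hk2 (rn6 chromosome 4, 113559426 to 113610243) was at 16.7, 10.1 and 16.4 CPM in normoxia, 30.9, 50.5 and 25.5 CPM at day 28, and 37.6, 33.1 and 33.01 CPM at day 56. All 6 Sugen-hypoxia libraries lay above the 3 normoxia libraries, with the highest value in day 28 replicate 2. The means were 34.6 ± 2.64 CPM at day 56 and 14.4 ± 3.74 CPM in normoxia (SD, n = 3 each), a 2.41-fold rise (log2 1.27, SE 0.28, adjusted p = 0.0332). At day 28 the log2 fold change was as large, 1.31 (SE 0.28), with an adjusted p of 0.0675, and day 56 minus day 28 was -0.04 (SE 0.27, adjusted p = 0.958).

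Hk1, the constitutive isozyme, was at 46.3, 28.0 and 33.8 CPM in normoxia, 39.9, 45.6 and 47.3 CPM at day 28, and 48.0, 51.5 and 52.3 CPM at day 56. Its day 56 libraries were above all others, but its normoxia replicate 1 lay inside the range of day 28. The log2 fold change at day 56 was 0.49 (SE 0.19, adjusted p = 0.121). Hk3, an isozyme enriched in myeloid cells, rested on 1 library: it had 35, 9 and 18 reads in normoxia, 60, 985 and 38 reads at day 28, and 20, 19 and 38 reads at day 56. Its fitted log2 fold change of 3.25 at day 28 (adjusted p = 0.117) comes from day 28 replicate 2 alone.

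That library also had the most monocyte and neutrophil marker RNA. Summed monocyte markers, of which 16 of 19 were tested and none with a line was at 0 in all libraries, were 11852 CPM in day 28 replicate 2, 3754 and 5174 CPM in the other two day 28 libraries, 2441 to 4919 CPM in normoxia and 2211 to 3328 CPM at day 56. Summed neutrophil markers, with 12 of 15 tested, were 1014 CPM in that library, 298 and 352 CPM in the other two, 110 to 249 CPM in normoxia and 126 to 260 CPM at day 56. Hk2, Slc16a3, Slc2a3 and Tkt were each highest of the 3 day 28 libraries in replicate 2. The same held for Hk3, Gpi, Pfkfb3, Aldoa, Aldoc, Tpi1, Pgk1, Pgam1, Eno1, Pkm, Ldha, Taldo1, Cs, Idh1, Idh2 and Mdh1. The part of monocytes and neutrophils in the day 28 values of these genes was not tested. At day 56, where 4 genes were called, the marker sums of both cell types overlapped those of normoxia. Monocyte markers had a median log2 fold change of -0.22, with 7 positive and 9 negative values, although Nr4a1 (log2 1.92) rose. Neutrophil markers had a median of 0.40, with 8 positive and 4 negative values, and Mmp9 (log2 2.18) and Il1r2 (log2 3.71) rose. Markers of NK and other cytotoxic cells, with 12 of 12 tested and none at 0 in all libraries, had a median log2 fold change of 0.61 at day 56, with 10 positive values and 1 call. Their sum was 910 to 1190 CPM at day 56 and 584 to 938 CPM in normoxia, and the mean of their log2(CPM + 0.5) values was 5.87 to 6.18 at day 56 and 5.19 to 5.79 in normoxia, without overlap. T cell markers, with 13 of 14 tested, had a median log2 fold change of 0.45 at day 56, with 8 positive and 5 negative values and 1 call. The mean of their log2(CPM + 0.5) values was 6.93 to 7.26 at day 56 and 6.71 to 6.90 in normoxia, without overlap. B cell markers, with 9 of 10 tested, went the other way, with a median log2 fold change of -0.27 at day 56. Of these, 2 values were positive and 7 negative, and 1 gene was called as lower. Their sum was 560 to 935 CPM at day 56 and 1143 to 1877 CPM in normoxia, without overlap. The part of NK, cytotoxic, T and B cells in the 4 calls was not tested.

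**Figure D2:**
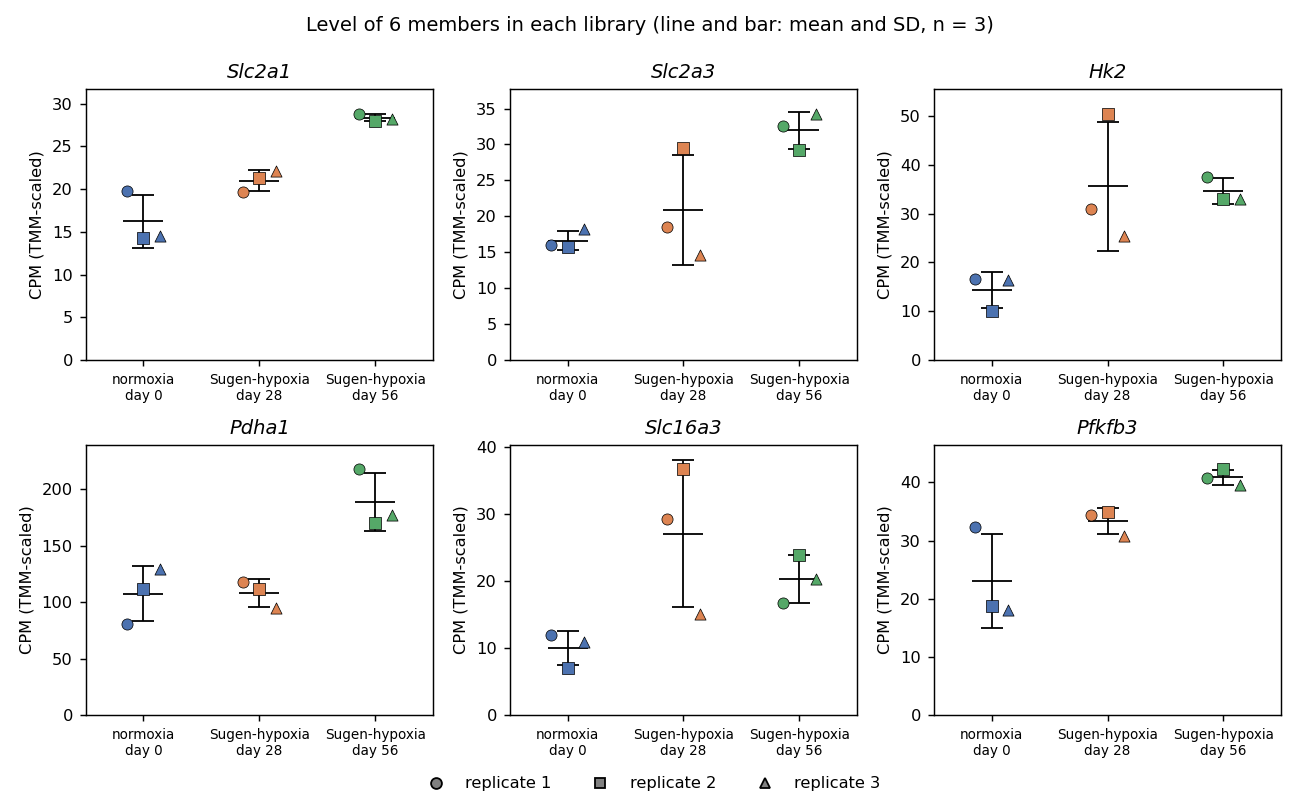
Level in TMM-scaled CPM (vertical axis) of 6 genes in each of 9 libraries, by day; points are libraries, and the line and bar are the mean and SD of 3. Day 56 libraries lie above all normoxia libraries for all 6 genes, and day 28 replicate 2 is the highest library for Hk2 and Slc16a3.

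Relative use of the hexokinase isozymes was computed within each library as a share of reads per kilobase of exon. Hk2 made up 14.8, 15.0 and 18.9% of hexokinase reads per kilobase in normoxia, 27.0, 27.4 and 20.7% at day 28, and 27.7, 23.9 and 23.4% at day 56. The share was higher in each of the 6 Sugen-hypoxia libraries than in any normoxia library, while Hk1 remained the main isozyme in every library. The difference from normoxia was 8.81 percentage points at day 28 and 8.75 at day 56, each with an exact permutation p of 0.1, the smallest that 3 against 3 libraries can give. The smallest adjusted p over the 36 isozyme tests was 0.4.

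In the lactate carriers, the MCT4 share was 71.6, 77.6 and 51.0% of the pair at day 28, above the 50.5, 34.4 and 43.4% of normoxia without overlap, though day 28 replicate 3 was within 1 percentage point of normoxia replicate 1. At day 56 it was 43.7, 62.1 and 56.2%, which overlapped normoxia. Among phosphofructokinases, Pfkl, the liver-type subunit, took 43.7 ± 0.281% at day 56 and 37.9 ± 3.25% in normoxia (SD, n = 3 each), and the 2 sets of libraries did not overlap.

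**Figure D3:**
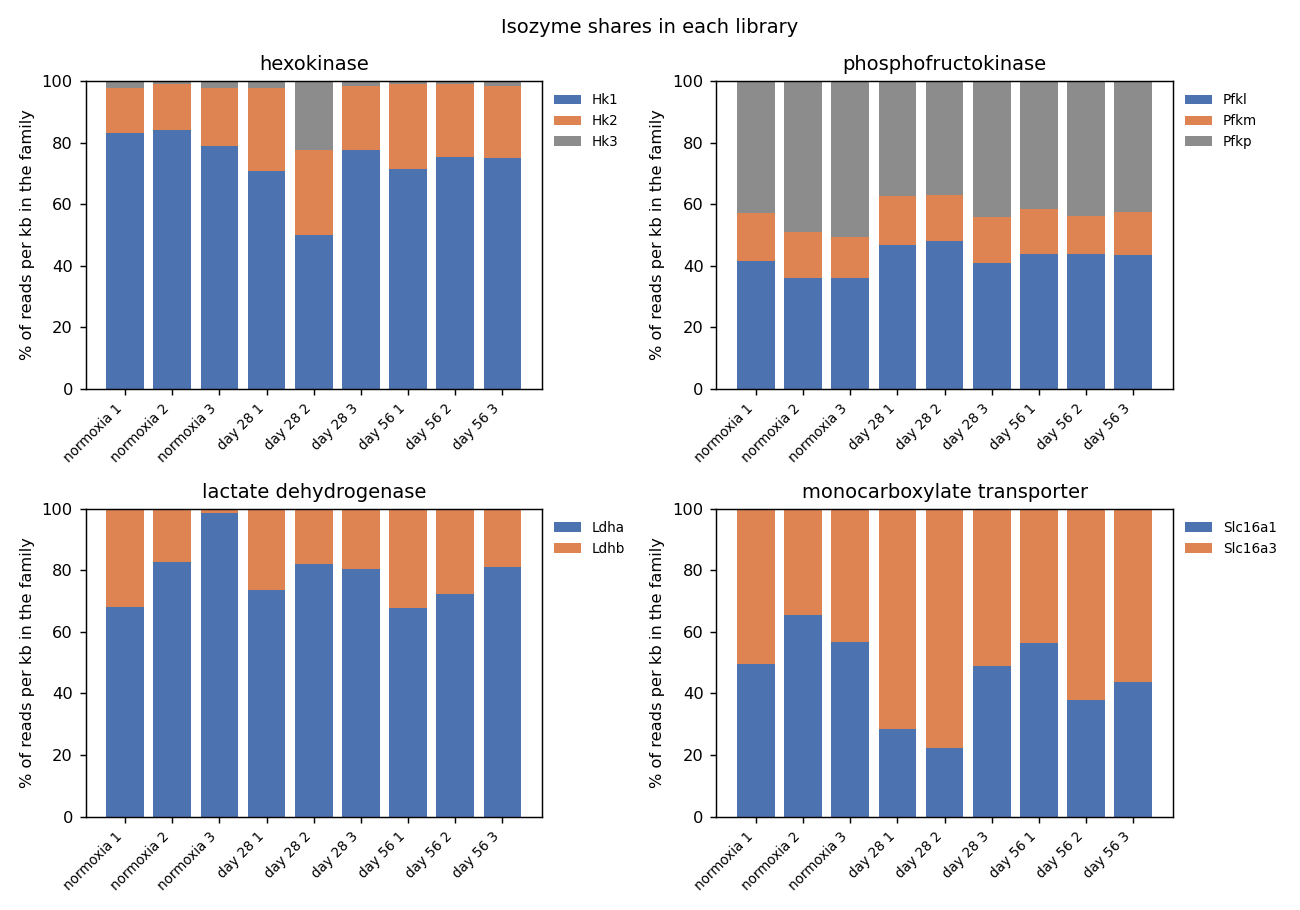
Share of each isozyme in the reads per kilobase of its family (vertical axis, %) in each of the 9 libraries, for hexokinases, phosphofructokinases, lactate dehydrogenases and monocarboxylate transporters. The orange Hk2 band is between 20.7 and 27.7% in the Sugen-hypoxia libraries and between 14.8 and 18.9% in normoxia, and the Ldhb band is nearly absent in normoxia replicate 3.

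At the phosphofructokinase step, which commits sugar to glycolysis, and the isomerase before it, all 5 genes (Gpi, Pfkl, Pfkm, Pfkp and Pfkfb3) had positive log2 fold changes at day 56 and none was called. Pfkfb3 makes fructose 2,6-bisphosphate, the activator of phosphofructokinase. It was measured at 32.3, 18.8 and 18.1 CPM in normoxia, 34.5, 34.9 and 30.9 CPM at day 28, and 40.7, 42.2 and 39.6 CPM at day 56. Day 56 lay above both other groups, and normoxia replicate 1 stood apart from replicates 2 and 3 and inside the day 28 range. The log2 fold change at day 56 was 0.82 (SE 0.22) and just missed the threshold at an adjusted p of 0.0521. Gpi, which isomerises glucose 6-phosphate, was above normoxia without overlap at both days, by 0.34 at day 28 (adjusted p = 0.187) and 0.38 at day 56 (adjusted p = 0.138) on the log2 scale.

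Lower glycolysis, from aldolase to pyruvate kinase, had 4 positive and 4 negative log2 fold changes among 8 genes at day 56 and no call. Pkm, encoding the pyruvate kinase of most tissues, had the highest level of the 33 genes per exon length, with 317 ± 74.5 CPM per kilobase at day 56 and 351 ± 144.0 in normoxia (SD, n = 3 each). Pkm was at 425, 793 and 1037 CPM in normoxia, 452, 693 and 493 CPM at day 28, and 580, 594 and 863 CPM at day 56. Its normoxia replicate 1 was the lowest of all 9 libraries and replicate 3 the highest, so both Sugen-hypoxia groups lay inside the normoxia range. Reads mapped to a single place were 43.4% of the exon reads of Pkm, 52.8% of those of Eno1 and 3.15% of those of Tpi1, and the levels of these 3 genes are therefore uncertain.

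Aldoc, the brain-type aldolase, was low throughout, at 0.37, 2.50 and 3.05 CPM in normoxia, 0.93, 1.47 and 0.61 CPM at day 28, and 1.75, 2.69 and 3.65 CPM at day 56. Its day 56 libraries lay above those of day 28 and inside the spread of normoxia or just above it, and Aldoa, the main form in blood cells, held at least 99.05% of aldolase reads per kilobase. Eno2, neuronal enolase, had 17 reads in normoxia replicate 2, 18 in day 28 replicate 1, 50 in day 56 replicate 1 and 0 in the other 6 libraries. The file places this line on chromosome 9, whereas RefSeq (GRCr8) places Eno2 on chromosome 4, so the line may not be Eno2. With 4.71% of those reads mapped to a single place as well, nothing can be said of its level.

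Lactate dehydrogenase converts pyruvate and lactate into each other. Ldha, the form that prevails in glycolytic tissue, was at 213, 461 and 512 CPM in normoxia, 257, 334 and 258 CPM at day 28, and 242, 273 and 331 CPM at day 56. Normoxia replicates 2 and 3 were above all Sugen-hypoxia libraries and replicate 1 was below all of them, and the log2 fold changes of -0.48 at day 28 and -0.49 at day 56 (SE 0.31 each; adjusted p = 0.312 and 0.307) were not called. Ldhb, the heart-type form, had 2004, 2187 and 95 reads in normoxia, 2895, 2395 and 1653 at day 28, and 2585, 2100 and 1932 at day 56. Normoxia replicate 3 stands apart from the other 8 libraries in this gene, and its Ldhb share of lactate dehydrogenase reads per kilobase was 1.42%, against 17.2% to 32.2% in the other 8 libraries.

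Pyruvate dehydrogenase links glycolysis to the TCA cycle. Pdha1 (rn6 chromosome X, 37329778 to 37343410) was at 81.3, 112 and 130 CPM in normoxia, 118, 112 and 95.0 CPM at day 28, and 218, 170 and 177 CPM at day 56. The 3 day 56 libraries lay above the other 6, and day 28 lay within the normoxia range. The rise at day 56 was 1.75-fold (log2 0.81, SE 0.21, adjusted p = 0.0468), and the log2 fold change at day 28 was 0.01 (SE 0.20). Against day 28, the log2 difference at day 56 was 0.80 (SE 0.21, adjusted p = 0.097). A single place was found for 45.97% of its exon reads, and on these alone the log2 fold change at day 56 was 0.77 (adjusted p = 0.0489). Other genes of the enzyme complex and of the mitochondrial pyruvate carriers did not share the rise of Pdha1. Their log2 fold changes at day 56 were -0.55 for Pdhb, -0.40 for Pdhx, -0.70 for Dld, -0.78 for Mpc1 and -0.85 for Mpc2. Dlat was at 0.28, and none of these genes was called. Pdk1, a kinase that switches pyruvate dehydrogenase off and a HIF target, was at 10.95, 19.1 and 15.6 CPM in normoxia, 9.84, 11.8 and 12.5 CPM at day 28, and 12.4, 11.2 and 10.6 CPM at day 56, and was not called (log2 fold change -0.42 at both days).

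Intron reads of Pdha1 also differed between the groups. They were 9.84, 7.02 and 6.16% of its exon and intron reads in normoxia, 45.7, 29.8 and 24.4% at day 28, and 36.2, 31.9 and 32.9% at day 56. Relative to the intron share of the whole library, the Pdha1 share was at least 1.39 times as high in each of the 6 Sugen-hypoxia libraries and 0.673 to 1.15 times as high in normoxia. Pdha1 was the 1 gene of 32 with a value in every library (3.12%) in which all 6 lay above all 3 on this scale, against 0.561% of all genes; Eno2 had libraries without reads and could not be compared. The strand of the reads is not given in the sources used here, so reads of an overlapping transcript cannot be told apart from those of Pdha1.

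**Figure D4:**
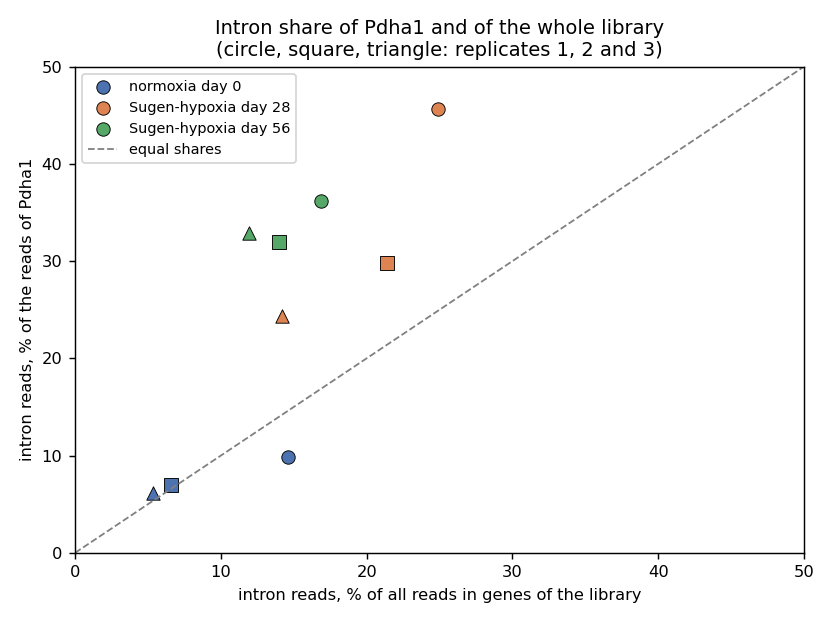
Intron share of the reads of Pdha1 (vertical axis, %) against the intron share of all reads in genes of the same library (horizontal axis, %); 1 point a library, colours for the 3 groups and a dashed line where both are equal. The 6 Sugen-hypoxia points lie above the line and the 3 normoxia points lie on or below it or within 1 percentage point of it.

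The pentose phosphate branch, which makes NADPH and ribose, was represented by Tkt (transketolase) and Taldo1 (transaldolase). Tkt was at 183, 203 and 240 CPM in normoxia, 322, 525 and 229 CPM at day 28, and 165, 214 and 228 CPM at day 56. Its high values at day 28 were those of replicates 1 and 2, the libraries lowest in globin reads, and day 56 lay just below day 28 without overlap. The log2 difference of day 56 from day 28 was -0.83 (SE 0.29, adjusted p = 0.177). Neither gene was called in any comparison.

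TCA cycle and malate genes had negative log2 fold changes in 7 of 7 cases at day 56, with a median of -0.16 against -0.04 over all genes, and none was called. Cs, citrate synthase, which makes citrate at the start of the cycle, was among the steadiest genes at 85.5, 86.5 and 86.8 CPM in normoxia, 86.6, 100.3 and 82.1 CPM at day 28, and 75.7, 80.9 and 87.1 CPM at day 56. Mdh1, the cytosolic malate dehydrogenase of the malate shuttle, was at 56.2, 126.9 and 129.4 CPM in normoxia, 58.8, 63.8 and 59.4 CPM at day 28, and 52.9, 57.4 and 62.97 CPM at day 56. Normoxia replicates 2 and 3 had about double the level of the other 7 libraries, including normoxia replicate 1, and the log2 fold changes of -0.78 at day 28 (adjusted p = 0.124) and -0.85 at day 56 (adjusted p = 0.0837) were not called.

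Idh1, the cytosolic NADP-dependent isocitrate dehydrogenase, was at 10.1, 12.4 and 15.2 CPM in normoxia, 11.9, 27.4 and 16.3 CPM at day 28, and 6.38, 9.58 and 7.41 CPM at day 56. It was the 1 gene of the 33 whose day 56 libraries lay below normoxia without overlap, and they lay below day 28 as well. The log2 fold change at day 56 was -0.69 against normoxia (SE 0.31, adjusted p = 0.167) and -1.25 against day 28 (SE 0.31, adjusted p = 0.0949). Between day 56 and day 28, 3 of the 33 genes (Tkt, Idh1 and Idh2), or 9.09%, lay below without overlap, against 17.4% of all genes. In the same comparison 7 of the 33, or 21.2%, lay above, against 17.8% of all genes. At day 28 the count above normoxia was 4 of 33, or 12.1%, against 11.4% of all genes, and 0 of 33 lay below, against 11.8%. The 15 genes whose levels are not given by library had log2 fold changes between -0.37 and 0.42 at day 28 and between -0.67 and 0.57 at day 56, with no call.

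**Figure D5:**
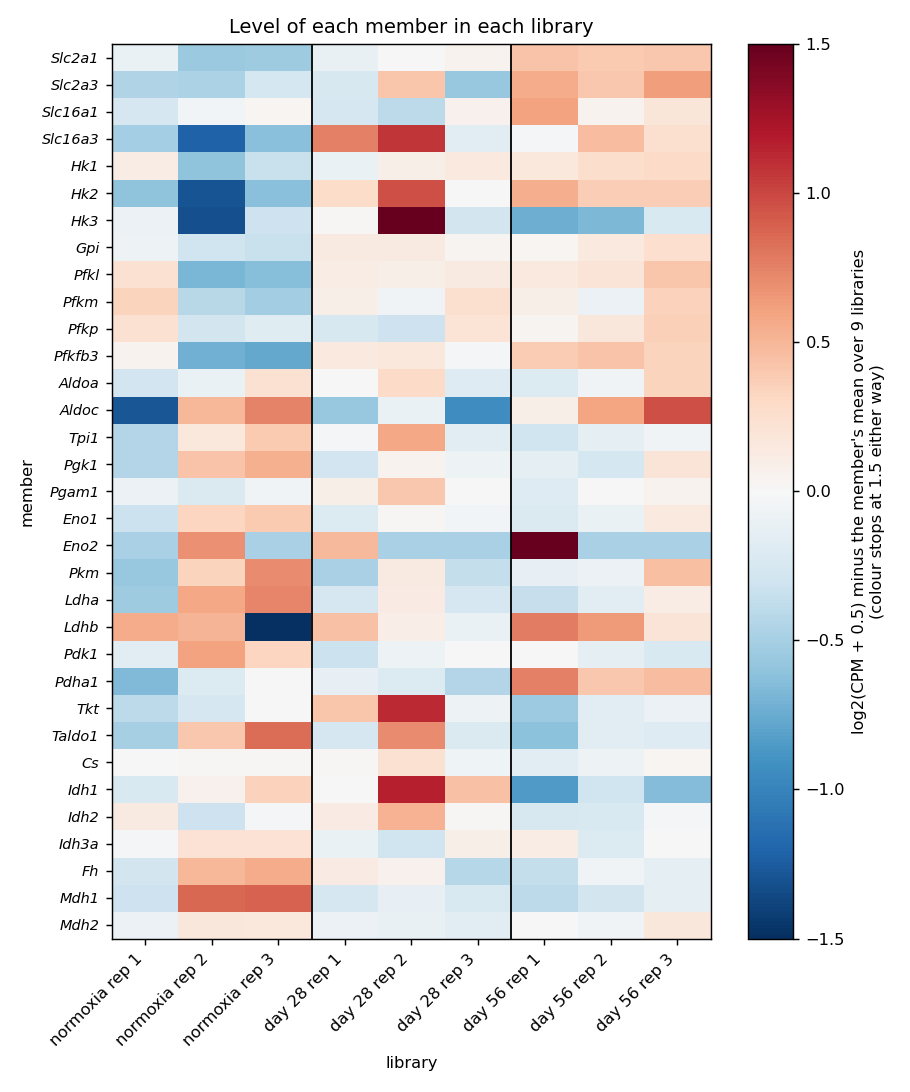
Level of each of the 33 genes in each of 9 libraries as log2(CPM + 0.5) minus the gene's mean over the libraries (colour, stopping at 1.5 either way). Normoxia replicates 2 and 3 share a pattern that normoxia replicate 1 does not, with Ldha and Mdh1 high and Pfkl and Pfkfb3 low, and day 28 replicate 2 is high in Hk3, Tkt and Idh1.

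The 3 normoxia libraries did not behave as 1 group in these genes. In 9 of the 33 genes, or 27.3%, normoxia replicate 1 lay inside the range of the 6 Sugen-hypoxia libraries while replicates 2 and 3 both lay outside it, on the high side in 4 genes and on the low side in 5. Over all genes tested the share was 32.6%, so the pattern was no more frequent in these genes than elsewhere. Without normoxia replicate 1, 17 of the 33 genes were called at day 56, of which 10 were higher and 7 lower, and 16 at day 28, of which 8 were higher and 8 lower. The share of all genes called was then 43% at day 56 and 45.2% at day 28. In that fit Slc2a1, Slc16a3, Hk1, Hk2, Gpi, Pfkl, Pfkm and Pfkfb3 were higher and Pgk1, Eno1, Ldha, Pdk1, Fh and Mdh1 were lower at both days. Without any 1 of the other 5 libraries of the day 56 comparison, 0 of the 33 were called. Few genes of any kind were called in these fits, 85 to 304 of the 12665 to 12698 tested. The adjusted p of the 4 genes was then between 0.0675 and 0.155 and their log2 fold changes between 0.69 and 1.37. Which state of the normoxia libraries is typical was not tested.

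The upstream windows of 3 of the 4 called genes, Slc2a1, Hk2 and Pdha1, are shown with that of Ldha, a classic HIF target that was not called, since HIF and the aryl hydrocarbon receptor named in the title of the series bind short related motifs. The RefSeq promoter table (assembly GRCr8) held a window for 30 of the 33 genes. The letters searched on both strands in the 250 bases before the start were ACGTG and GCGTG. Both are forms of the core of the HIF response element. GCGTG is also the core of the element bound by the aryl hydrocarbon receptor, so the strings do not separate the factors. Capitals mark matches on either strand, and ACGTG overlaps the E-box CACGTG.
Slc2a1 (chr5:138002272-138002521, plus strand): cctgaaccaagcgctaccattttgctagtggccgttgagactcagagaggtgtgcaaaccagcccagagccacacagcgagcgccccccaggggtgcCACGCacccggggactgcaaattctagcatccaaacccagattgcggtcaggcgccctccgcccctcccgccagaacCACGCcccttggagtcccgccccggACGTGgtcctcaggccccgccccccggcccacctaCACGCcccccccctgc
Hk2 (chr4:116841276-116841525, minus strand): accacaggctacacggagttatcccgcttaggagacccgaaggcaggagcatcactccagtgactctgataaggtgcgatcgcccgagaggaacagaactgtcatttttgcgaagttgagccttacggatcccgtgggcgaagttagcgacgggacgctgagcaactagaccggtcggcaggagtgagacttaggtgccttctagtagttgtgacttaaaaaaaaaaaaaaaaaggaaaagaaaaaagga
Pdha1 (chrX:38508908-38509157, plus strand): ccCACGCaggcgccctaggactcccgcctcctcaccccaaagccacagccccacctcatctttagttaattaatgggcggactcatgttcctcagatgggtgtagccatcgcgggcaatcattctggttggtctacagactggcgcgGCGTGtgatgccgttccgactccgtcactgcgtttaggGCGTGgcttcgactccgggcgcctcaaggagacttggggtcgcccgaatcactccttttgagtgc
Ldha (chr1:106507842-106508091, plus strand): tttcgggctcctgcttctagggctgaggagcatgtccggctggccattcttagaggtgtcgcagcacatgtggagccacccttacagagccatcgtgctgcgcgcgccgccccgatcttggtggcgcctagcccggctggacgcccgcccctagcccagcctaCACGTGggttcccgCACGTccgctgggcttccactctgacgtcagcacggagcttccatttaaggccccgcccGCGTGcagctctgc
ACGTG was found once in the Slc2a1 window and 3 times in that of Ldha, where 2 of the matches are both strands of 1 E-box, and not in those of Hk2 and Pdha1. GCGTG was found 3 times in Slc2a1, 3 times in Pdha1, once in Ldha and not in Hk2. Among 34 windows of these genes, 32.4% held ACGTG and 44.1% held GCGTG, against 16.6% and 25.9% of the 33469 windows of the table. A match is a string of letters and not a bound site, and these 3 called genes did not all share either string.

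Other genes of the same pathways were read from wider lists. Of 11 tested genes among 21 further glycolytic genes and 9 tested among 11 further pentose phosphate genes, 0 were called in any of the 3 comparisons. Among 27 tested of 32 further genes of the TCA cycle and pyruvate entry, day 56 had 1 rise and 1 fall. Over all genes tested, 7.12% were called in that comparison. Of the 27 log2 fold changes at day 56, 8 were positive and 19 negative. Their median was -0.31, against -0.04 over all genes tested. Slc25a1, the mitochondrial citrate carrier, rose to 12.8 ± 0.332 CPM at day 56, against 7.17 ± 1.33 CPM in normoxia (SD, n = 3 each, log2 0.83, adjusted p = 0.0284). Me2, the mitochondrial malic enzyme, fell to 18.6 ± 1.21 CPM, against 28.6 ± 0.770 CPM in normoxia (log2 -0.62, adjusted p = 0.0352). Of 14 HIF targets outside the set, Vegfa (log2 3.02, adjusted p = 0.00985) and Bhlhe40 (log2 2.15, adjusted p = 0.0147) rose and Ankrd37 (log2 -1.53, adjusted p = 0.0481) fell at day 56. Over all genes, 3.42% were called as higher and 3.7% as lower at day 56. Vegfa was low, at 0.54, 0.26 and 0.32 CPM in normoxia and 3.06, 4.16 and 2.01 CPM at day 56. At day 28, 0 of the 14 were called, against 0.129% of all genes.

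Bpgm, which makes the 2,3-bisphosphoglycerate of red cells, followed the red cell content of the libraries. It was at 952, 1798 and 2214 CPM in normoxia, 49.0, 142 and 685 CPM at day 28, and 1056, 1314 and 1401 CPM at day 56. Summed erythroid markers were 113457, 197876 and 273300 CPM in normoxia, 2605, 9466 and 65177 CPM at day 28, and 106620, 108055 and 119334 CPM at day 56, the same order of libraries within each group. The log2 fold change of Bpgm at day 28 was -2.50 (SE 0.80, adjusted p = 0.108). Pkm, Pgk1, Ldha, Eno1 and Taldo1 had the same order within normoxia, lowest in replicate 1 and highest in replicate 3. So did Aldoa, Aldoc, Tpi1, Slc16a1, Tkt, Cs, Idh1, Idh3a, Fh, Mdh1 and the called gene Pdha1. The part of red cell RNA in the levels of these genes was not tested. Summed platelet markers, with 15 of 15 tested and none at 0 in all libraries, had that order in normoxia too, at 952, 4023 and 4435 CPM, and were 727, 1194 and 1115 CPM at day 28 and 2409, 2357 and 4635 CPM at day 56. At day 28 Pkm, Pgk1, Ldha, Eno1 and Taldo1 all had the order of the platelet sum, which differs there from the erythroid order. The neutrophil sum and the NK and cytotoxic sum had that day 28 order too. The NK and cytotoxic sum was 584, 689 and 938 CPM in normoxia, 429, 860 and 644 CPM at day 28, and 910, 992 and 1190 CPM at day 56. At day 56 Pgk1 had the platelet order, and Taldo1 had neither the platelet nor the erythroid order. Pkm, Ldha and Eno1 had the erythroid order, which was also that of the NK and cytotoxic sum. The part of platelet, neutrophil, NK and cytotoxic cell RNA was not tested either.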

How the data were processed

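The authors deposited a single table. Its columns of exon reads, uniquely mapped exon reads and exon-plus-intron reads are raw counts per gene and library, per the file headers. The deposited uniquely mapped exon reads of replicate 1 of each group may be estimated counts, because broken lines hold values that are not whole. On intact lines they were whole, and they were fitted as counts. Exon length was taken from the authors' table. The genome build was rn6 and FastQC is listed, per the submitters' processing notes; aligner and strand setting: not given in the sources used here. Another 90 per-sample columns were not used, and 8 broken lines of 22085 were left out.

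Counts were tested with edgeR 4.0.16 (R 4.3.3; TMM, filterByExpr, robust glmQLFit and glmQLFTest, 1 mean per group over 9 libraries), with Benjamini-Hochberg adjustment at 0.05 over all 12447 genes. The common coefficient of variation was 0.280. SE was derived from the F statistic. A count of 3 was worth 0.0761 to 0.195 CPM, for counting error only. DESeq2 1.42.0 and limma 3.58.1 served as an alternative and for helper steps. The tests were checked on simulated data. No libraries were duplicates.

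The genes, lists and tests were chosen with earlier results of these data known. Genes described one by one were those called in any comparison, the 5 with the largest absolute log2 fold change in each, and a short list of rate-limiting or marker enzymes named whatever their result; of the wider pathway lists, called genes and at most the 3 largest changes. Nr4a1, Mmp9, Il1r2, Vegfa, Bhlhe40 and Ankrd37 were named after their values were seen. So were Pdhb, Pdhx, Dlat, Dld, Mpc1 and Mpc2. Promoter windows came from RefSeq (GRCr8) and were used only for sequence.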

Additional observations from a re-analysis of the deposited data

Results flagged for a closer look

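The intron reads of Pdha1, which enter no test of the gene levels, were higher relative to the whole library in all 6 Sugen-hypoxia libraries than in the 3 normoxia libraries. The lowest Sugen-hypoxia value was 1.39 times the intron share of its library, against at most 1.15 times in normoxia. Of 32 genes with a value in every library, 1 (3.12%) had this pattern, against 0.561% of all 12299 genes compared in the same way.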

How the results depend on the processing

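The count of genes called at day 28 was 0 and became 2 with DESeq2 and 1 with no filter on low counts; leaving out 1 library at a time gave 0 to 16. At day 56 the count was 4 and became 8 with DESeq2, 1 with a replicate block, 0 with the intron share of each library as a covariate and 2 with only the 2 groups in the fit; leaving out 1 library gave 0 to 17. Between day 56 and day 28 it was 0 and became 2 with DESeq2 and 1 with only the 2 groups, and leaving out 1 library gave 0 to 0. The cause of these differences was not tested, except that the fits without a library or group use fewer samples. Over all genes, the 16 calls of day 28 became 1659 with DESeq2, 79 with upper-quartile factors, 151 without a filter, 223 with the block, 72 on uniquely mapped reads, 8 with relative-log-expression factors, 8 at a mean of at least 5 CPM, 1 with the intron covariate and 2 with 2 groups. The 886 calls of day 56 became 2346 with DESeq2, 540 with the block, 138 with the covariate and 348 with 2 groups. The 68 between the days became 1062 with DESeq2, 186 with the block and 590 with 2 groups. Leaving out 1 library at a time gave 2 to 5732 calls over all genes at day 28. It gave 85 to 5453 at day 56 and 3 to 263 between the days. Same-numbered libraries deviated together with correlations of -0.146 to 0.167, so the numbers do not pair them; the block left 1 gene, Slc2a1, called. Of the 4 genes called at day 56, Hk2, Slc2a1 and Slc2a3 passed in 9 of 16 alternatives and Pdha1 in 8.

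Of the single fold changes and counts recomputed under the alternatives, 24 changed sign, 569 kept direction and side of the threshold, 26 passed it newly and 29 no longer passed it. With the intron covariate, log2 fold changes at day 28 became 0.78 for Aldoc, 0.41 for Pkm, 0.34 for Ldha, -0.78 for Ldhb and 0.032 for Pdk1, at day 56 -1.63 for Eno2 and 0.28 for Pkm, and between the days 0.20 for Hk2. Pdha1 at day 28 was -0.0095 with upper-quartile factors and -2.57e-05 at a mean of at least 5 CPM. Leaving out 1 library at a time, day 28 values ranged from -0.37 (without normoxia replicate 3) to 0.56 for Ldhb, from -1.84e-05 (without day 28 replicate 2) to 0.53 for Slc2a3, from -0.13 to 0.17 for Pdha1 and from -0.032 to 0.11 for Cs. Day 56 values ranged from -0.49 to 0.46 for Hk3, from -0.41 to 0.16 (without normoxia replicate 3) for Pkm and from -5.75 (without day 56 replicate 1) to 7.16 for Eno2. Between the days they ranged from -0.23 to 0.29 (without day 28 replicate 2) for Hk2 and from -5.26 to 7.09 for Eno2.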
